A study of Mus musculus with 2 samples.

Results

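The transcripts of 8 hormone and neurotransmitter receptors were followed through the thick ascending limb (TAL) of the mouse kidney: Ptger3, Avpr2, Adrb1, Htr1b, Trhr, Gcgr, Calcr and Ptger4, out of 32227 genes in the count matrices. The 8 genes were selected on how their counts differed among TAL nuclei of these same 2 libraries, so their levels are given as a description and no test was made. TAL nuclei were the barcodes with at least 10 counts of Slc12a1, the gene of the apical sodium-potassium-chloride cotransporter NKCC2. Each was put in the macula densa (MD) class with at least 3 counts of Nos1 and Pappa2 together, otherwise in the β class with at least 2 counts of Tmem52b, otherwise in the γ class with at least 2 counts of Tmem207 and Gpc5 together, and otherwise in the α class. Ptger3 was the most abundant of the 8. It was 7.69-fold higher in α than in β of the cortex, though 1.77-fold when Cldn10, Cldn16 and Kcnj10 counts set the classes. Trhr was 4.05-fold higher in β than in α there, Calcr was highest in the MD class, 189 of the 195 Htr1b counts were in the medulla, and Gcgr differed little between classes of the cortex.

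The study isolated tagged nuclei from dissected cortex and dissected medulla and sequenced 1 library of each, to learn which cell types line the TAL. The mice were B6, male, of genotype WT in the sample labels, with an age of 12 in a unit that the labels leave out, and both libraries came from animals carrying an Slc12a1-driven CreERT2 and a CAG-Sun1-sfGFP nuclear envelope tag that had been given tamoxifen. The tag is therefore limited to cells that had Slc12a1 promoter activity at the time of induction. The cortex portion was a superficial strip, and the medulla portion was the remaining tissue with the deep cortex still in it.

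The TAL reabsorbs sodium chloride through NKCC2 without water, and it drives the paracellular uptake of calcium and magnesium. Its transport is set by receptors on the basolateral side: vasopressin, glucagon, calcitonin and β-adrenergic receptors couple mainly to Gs and raise cAMP, while the prostaglandin E2 receptor EP3 and the serotonin receptor 5-HT1B couple mainly to Gi and lower it. The receptor for thyrotropin-releasing hormone couples mainly to Gq and acts through calcium. The MD is the plaque of tubule cells at the glomerulus that senses luminal salt and signals to the renin-producing cells.

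The cortex library held 5442 called barcodes with 16457300 counts and the medulla library 8121 with 20947211, at medians of 2427 and 2430 counts per barcode, and no barcode sequence was shared. By the rule the cortex gave 2824 α, 1493 β, 248 γ and 653 MD barcodes, and the medulla gave 3776, 571, 3542 and 78. The TAL markers Slc12a1, Umod, Kcnj1 and Egf were all present in every class, Slc12a1 by the rule itself. The 6 MD markers summed to 8478 CPM (counts of a gene per 1000000 counts of all genes in the same barcodes) in the cortical and 10312 in the medullary MD class and to between 12.9 and 550 in the other classes. These 6 include Nos1 and Pappa2, which set the MD class, so part of this contrast was fixed by the rule. The cortical γ class went against its name: it summed to 3631 CPM of the 5 β markers, where medullary γ had 1116, so it is called here by its rule, the Tmem207/Gpc5 barcodes of the cortex. Medullary γ was not far from the other classes in the 4 γ markers Cldn10, Kcnj10, Slc9a3 and Kcnt1. These summed to 1408 CPM there, against 1059 in medullary α and 1000 in medullary β. Proximal tubule markers summed to between 1644 and 3139 CPM in the cortical classes and to between 323 and 528 in the medullary classes, and distal convoluted tubule markers were highest in the β classes, with 870 CPM in cortex and 583 in medulla. With 1 library per region, region and library cannot be told apart, and every interval below covers counting error only, not differences between animals. Barcodes of a library are not replicates.

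**Figure D1:**
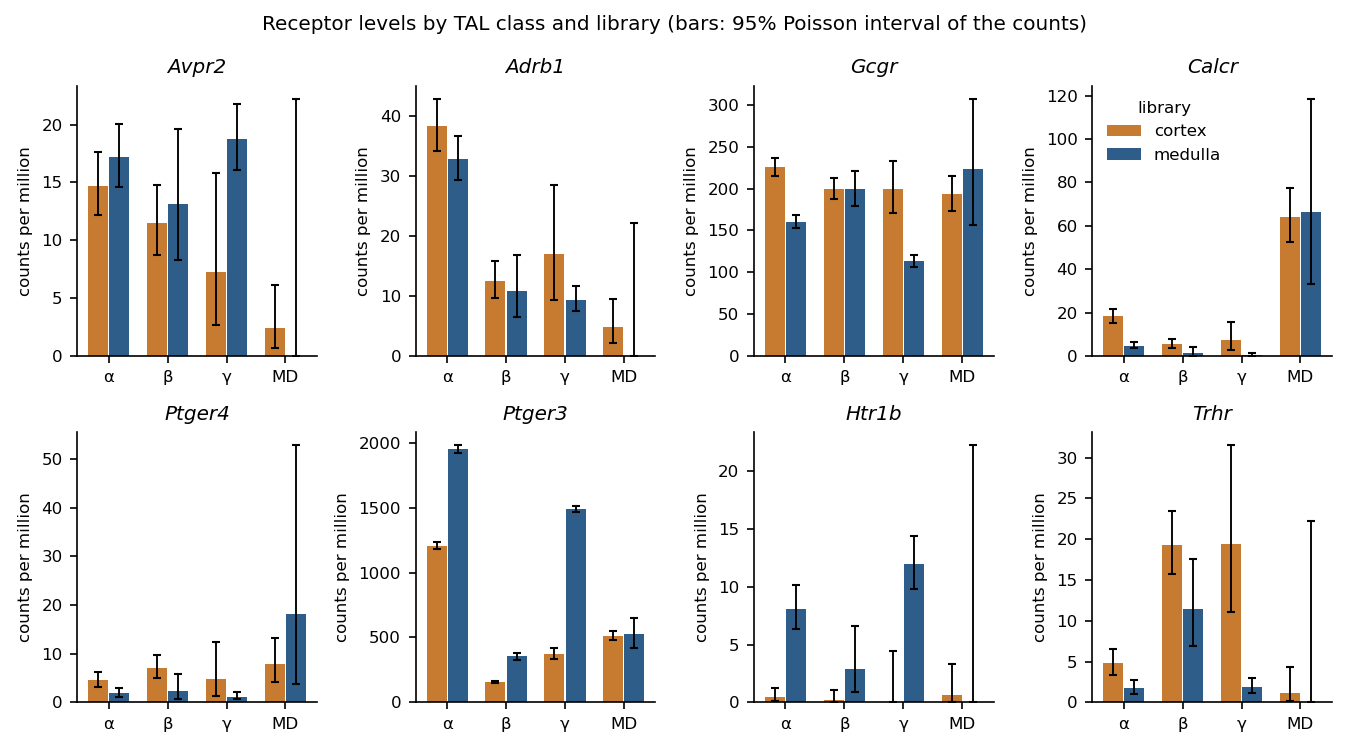
Level of each receptor in CPM (vertical axis, a scale of its own in each panel) in the α, β, γ and MD classes of the cortex library (orange) and the medulla library (blue), with bars for the 95% Poisson interval of the counts. Within each library Ptger3 and Adrb1 are highest in α and Calcr in MD, Trhr is highest in β of the medulla, and Gcgr lies between 193 and 226 CPM in the classes of the cortex.

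Per kilobase of annotated exon, Ptger3 was the most abundant member in medullary α, at 310 CPM per kb, followed by Gcgr at 46.8, Adrb1 at 9.71 and Avpr2 at 5.95. Htr1b at 1.71, Calcr at 1.23, Trhr at 0.421 and Ptger4 at 0.288 CPM per kb were the lowest. The order is approximate, because the kit reads 3′ ends and intron reads may have been counted. Most members were seen in few nuclei: Ptger3 was counted in 90.4% of medullary α barcodes (3414 of 3776) and Gcgr in 45.4% of cortical α barcodes, while no other member passed 11.8% in any class.

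Avpr2, the vasopressin V2 receptor (ENSMUSG00000031390, GRCm39 chromosome X, 72935708 to 72939108, + strand), was counted at low and similar levels in α, β and medullary γ. Its level was 14.7 CPM in cortical α (12.1 to 17.6, from 117 counts), 11.5 in cortical β and 7.27 in the Tmem207/Gpc5 barcodes. In the medulla it was 17.2 CPM in α, 13.1 in β and 18.8 in γ. Its α level was 1.28 times that of β in cortex (0.930 to 1.78) and 1.31 times in medulla (0.844 to 2.13), so both intervals held 1, and neighbours in the order of these classes were not separated. Within β, barcodes that also met the γ threshold had 17.2 CPM in cortex (11.8 to 24.1) and 19.6 in medulla (12.4 to 29.4). The other β barcodes had 8.16 (5.38 to 11.9) and 0 (0 to 6.33), so the intervals overlapped in cortex but not in medulla. The MD class was the exception, with 2.40 CPM from 4 counts in cortex, 6.12-fold below cortical α (2.33 to 22.8). The 78 medullary MD barcodes had 0 counts, with an interval up to 22.2 CPM. All 4 cortical MD counts lay in MD barcodes that also held Umod, the uromodulin gene of the TAL proper, at 5.85 CPM (1.59 to 15.0). The 498 MD barcodes without Umod had none (0 to 3.75 CPM), so these intervals overlapped, and depth was not made equal between the groups. In barcodes too small to be called nuclei, the medulla had 36.0 CPM of Avpr2 (28.0 to 45.5), above every TAL class there, and the cortex had 12.0 CPM. Avpr2 lies on the opposite strand within the span of L1cam and Arhgap4, and the counting strand was not given in the sources used here, so some of its counts may belong to those genes.

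Adrb1, the β1-adrenergic receptor (ENSMUSG00000035283, chromosome 19, 56710631 to 56721545, + strand), separated α from every other class. It was at 38.3 CPM in cortical α (34.1 to 42.8) and 32.8 in medullary α (29.3 to 36.7). It was at 12.4 CPM in cortical β, 17.0 in the Tmem207/Gpc5 barcodes, 10.8 in medullary β, 9.39 in medullary γ and 4.798 in cortical MD, with 0 counts in medullary MD. The α level was thus 3.08-fold that of β in cortex (2.35 to 4.09) and 3.04-fold in medulla (1.91 to 5.11), and 3.499-fold that of γ in medulla (2.74 to 4.50). Medullary β and γ did not differ beyond counting error, with a γ to β ratio of 0.868 (0.523 to 1.51). For Adrb1, γ as set by this rule thus stood with β and below α. For Ptger3 and Htr1b the γ class as a whole stood above the β class as a whole. The 498 cortical MD barcodes without Umod held 0 Adrb1 counts (0 to 3.75 CPM). The 8 counts of the class were all in the 155 with Umod, at 11.7 CPM (5.05 to 23.0), and depth was not made equal between the groups.

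Gcgr, the glucagon receptor (ENSMUSG00000025127, chromosome 11, 120413696 to 120429815, + strand), was counted in every class, at similar levels in cortex. There it was 226 CPM in α (215 to 236), 200 in both β and the Tmem207/Gpc5 barcodes and 193 in MD. In medulla it was 223 CPM in MD, 199 in β, 160.5 in α and 114 in γ (107 to 121). The α level was 1.13-fold that of β in cortex (1.05 to 1.22) but 0.805 of it in medulla (0.717 to 0.907), and γ was 0.570 of β (0.504 to 0.645). The lower medullary α value lay in the barcodes with mostly medulla score transcripts, described further on. Proximal tubule barcodes held 7 of 86 with a count in cortex (8.14%) at a median depth of 3488 counts. In medulla they held 0 of 97 at 4590, with an interval up to 3.73%. The shares of 23.2% to 46.8% in the α, β and γ classes thus lay above that background. Barcodes too small to be called held 242 CPM of Gcgr in cortex, above the level of every cortical class, and 196 in medulla, above that of α and γ. Gcgr overlaps the long noncoding RNA Gm11789 on the other strand, which had 139 counts in the TAL barcodes against 6248 of Gcgr.

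Calcr, the calcitonin receptor (ENSMUSG00000023964, chromosome 6, 3685680 to 3764714, − strand), was highest in the MD class of both libraries. It was at 64.2 CPM in cortical MD (52.6 to 77.5, from 107 counts) and 66.3 in medullary MD (33.1 to 119, from 11 counts), and 11.8% and 11.5% of these barcodes held a count. Cortical α followed at 18.2 CPM, then the Tmem207/Gpc5 barcodes at 7.27 and cortical β at 5.35, whose intervals overlapped. Medullary α had 4.798 CPM, medullary β 1.14 from 2 counts and medullary γ 0.552 from 5 counts. Cortical MD was 3.52-fold above cortical α (2.72 to 4.56) and 12.0-fold above cortical β (7.84 to 18.9), and medullary MD was 13.8-fold above medullary α (6.44 to 27.1). Below the MD class, α was 3.40-fold above β in cortex (2.26 to 5.29) and 4.21-fold in medulla (1.10 to 35.9), where β had those 2 counts. Cortical α was 3.79-fold above medullary α (2.70 to 5.43), while the MD classes of the libraries did not differ beyond counting error, at a ratio of 1.03 (0.5004 to 1.92). By the rule's own genes, the level within cortical MD was 79.5 CPM with 5 or more Nos1 and Pappa2 counts and 30.6 with 3 or 4. Cortical α barcodes with 1 or 2 such counts had 33.7 CPM against 16.8 where both were at 0. In medullary MD the 59 barcodes with 5 or more had 39.6 CPM (12.9 to 92.5), below the 66.3 of the class. The median count per barcode was 1883 in cortical MD against 2425 in cortical α, and proximal tubule barcodes held Calcr in 1 of 86 in cortex (1.16%) and 0 of 97 in medulla. After each barcode was thinned to 1000 counts, which left out 18 α and 5 γ barcodes of the medulla, Calcr was found in 6.89% of cortical MD and 1.84% of cortical α barcodes.

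Ptger4, the prostaglandin E2 receptor EP4 (ENSMUSG00000039942, chromosome 15, 5236142 to 5273673, − strand), was near the limit of detection. It had 4.52 CPM in cortical α, 7.08 in cortical β and 7.80 in cortical MD, from 36, 37 and 13 counts. In the medulla it had 1.92 CPM in α, 2.28 in β, 1.21 in γ and 18.1 in MD, from 18, 4, 11 and 3 counts. No pair of cortical classes was separated: the ratio of α to β there was 0.639 (0.392 to 1.04) and that of MD to α was 1.72 (0.839 to 3.33). Medullary levels were lower than cortical ones in α, at a ratio of 0.425 (0.227 to 0.768), and in β, at 0.322 (0.0833 to 0.896), while in MD the ratio was 2.32 (0.424 to 8.43) from 3 and 13 counts. The gene runs through part of Ttc33 on the other strand, which had 836 counts in the same barcodes against 126 of Ptger4.

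Ptger3, the prostaglandin E2 receptor EP3 (ENSMUSG00000040016, chromosome 3, 157272492 to 157352099, + strand), had 44088 counts in TAL barcodes, against 6248 of Gcgr, the next in number. In cortex its level was 1208 CPM in α (1183 to 1232), 515 in MD (481 to 550.2), 376 in the Tmem207/Gpc5 barcodes (335 to 420.0) and 157 in β (146 to 168). In medulla it was 1951 CPM in α (1923 to 1980), 1488 in γ (1463 to 1513), 524 in MD and 354 in β (327 to 383). The order was α, γ, MD and β in the medulla, and no 2 neighbours in it had overlapping intervals. The α level was 7.69-fold that of β in cortex (7.16 to 8.27) and 5.51-fold in medulla (5.09 to 5.98), and medullary γ was 4.20-fold above β (3.88 to 4.56) and 0.763 of α. From cortex to medulla Ptger3 was 1.62-fold higher in α (1.58 to 1.66) and 2.25-fold higher in β (2.03 to 2.51), although the β ratio was 0.591 with the deposited clusters as classes. The MD class did not differ between the libraries beyond counting error, with a medulla to cortex ratio of 1.02 (0.807 to 1.27).

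Ptger3 was spread unevenly over the β barcodes, as over those of every class. Only 13.8% of cortical β barcodes held a count, where a Poisson spread of the mean of 0.55 counts per barcode would give 42.3%, and those 206 barcodes held a mean of 3.99 counts each. In medullary β the shares were 29.1% counted and 66.4% under an even spread. Every other class also fell short, such as cortical α with 73.7% against 96.7% and cortical MD with 47.5% against 73.1%. The even spread takes all barcodes of a class to be of equal depth. The cortical β barcodes with Ptger3 had a median depth of 4690.5 counts against 2571 without, a Tmem52b level of 716 CPM against 1424 and a Cldn10 level of 164 CPM against 101. Since β barcodes need at least 2 counts of Tmem52b at any depth, the rule itself raises its minimum level in the shallower group. In medullary β the 166 barcodes with Ptger3 had 767 CPM of Gpc5 against 167 in those without, and 104 CPM of Cldn10 against 31.6, at medians of 2941.5 and 2743 counts. The β barcodes with Ptger3 also held more of Slc12a3, the sodium chloride cotransporter of the distal convoluted tubule, with 487 CPM against 193 in cortex and 339 against 52.1 in medulla, and those of the cortex had 673 CPM of Lrp2 against 498. Without barcodes holding 5 or more counts of Slc12a3, a setting added after the data were seen, the Ptger3 ratio of α to β was 8.01 in cortex and 5.68 in medulla, and without those holding as many of Lrp2, Cubn and Slc34a1 it was 9.74 and 5.31. When barcodes scored as doublets were removed, the cortical α to β ratio was 18.1, and the part of mixed droplets in the β counts was not tested. Barcodes too small to be called held 662 CPM of Ptger3 in cortex and 1437 in medulla, more than β in either library. Proximal tubule barcodes held Ptger3 in 6 of 86 in cortex (6.98%, 2.60 to 14.6) at a median of 3488 counts against 2668 in β, an interval that overlapped that of cortical β. At 1000 counts per barcode the shares were 7.23% in cortical β and 3.49% in proximal tubule barcodes, again with overlapping intervals, while the levels were 157 and 24.8 CPM. By share of barcodes, detection of Ptger3 in cortical β was thus not clearly separated from this background. The intervals of the levels did not overlap, at 146 to 168 CPM in cortical β and 11.9 to 45.6 in proximal tubule barcodes.

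**Figure D2:**
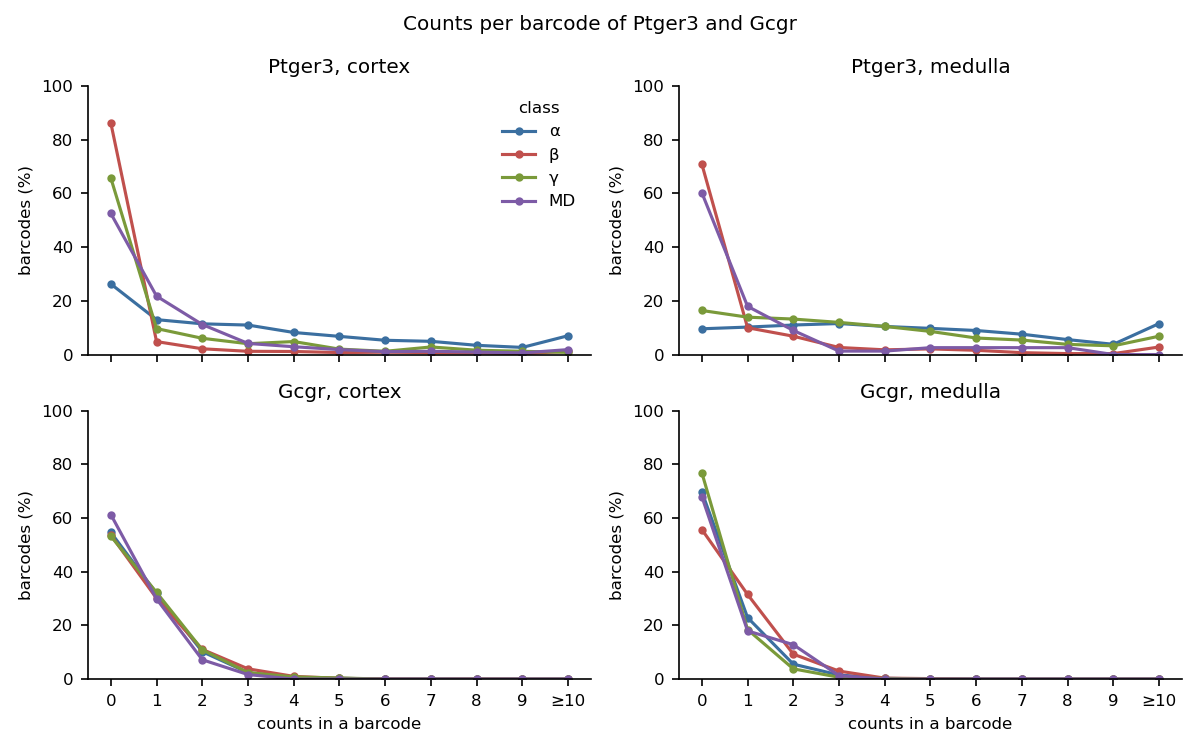
Share of barcodes (vertical axis, %) by the number of Ptger3 counts (top) or Gcgr counts (bottom) in a barcode (horizontal axis, with 10 or more in the last place) for the 4 classes of each library. Cortical β has 86.2% of its barcodes at 0 Ptger3 counts and a thin tail, medullary α only 9.59%, while the Gcgr curves of the classes nearly lie on each other in the cortex.

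Htr1b, the serotonin 5-HT1B receptor (ENSMUSG00000049511, chromosome 9, 81510344 to 81515902, − strand), was met in the medulla. The whole cortex library had 6 counts in its 5218 TAL barcodes, 4 of them in α, against 189 counts in the 7967 of the medulla. Medullary γ had 11.9 CPM (9.78 to 14.4), medullary α 8.10 (6.38 to 10.1) and medullary β 2.85 from 5 counts (0.924 to 6.64), and medullary MD had none. Within α the medulla was 16.1-fold above the cortex (6.05 to 60.7). Medullary γ was 4.19-fold above β (1.74 to 13.2) and 1.47-fold above α (1.09 to 2.00), and α was 2.85-fold above β (1.17 to 9.02). These ratios compare whole classes, which differed in their score transcripts, described further on. Uncalled barcodes had 0.414 CPM in cortex and 4.69 in medulla. Htr1b overlaps the long noncoding RNA D430036J16Rik on the other strand, with 96 counts in the TAL barcodes.

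Trhr, the receptor for thyrotropin-releasing hormone (ENSMUSG00000038760, chromosome 15, 44059483 to 44099315, + strand), was highest in β of the medulla, and in cortex it was at the same level in β and in the Tmem207/Gpc5 barcodes. It was at 19.3 CPM in cortical β (15.7 to 23.5), 19.4 in the Tmem207/Gpc5 barcodes, 4.77 in cortical α and 1.20 in cortical MD. In the medulla it was at 11.4 CPM in β (6.95 to 17.6), 1.71 in α and 1.88 in γ, with 0 counts in MD. β was 4.05-fold above α in cortex (2.76 to 6.04) and 6.67-fold in medulla (3.29 to 13.8), and 6.06-fold above γ in medulla (3.02 to 12.3). Cortical levels were higher over whole classes, with a medulla to cortex ratio of 0.358 in α (0.186 to 0.657) and 0.589 in β (0.345 to 0.959). Cortical β barcodes with fewer than 2 counts of Tmem207 and Gpc5 had 26.6 CPM (21.3 to 32.8), and those with 2 or more had 6.76 (3.60 to 11.6). The medullary β class gave 20.6 CPM (10.6 to 36.0) and 6.82 (2.94 to 13.4) for the same split. Trhr was thus higher in cortical β barcodes below the γ threshold than in those meeting it, while the medullary intervals overlapped. The 86 cortical β barcodes with a Trhr count had 42.1 CPM of Gpc5 against 86.6 in the others.

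**Figure D3:**
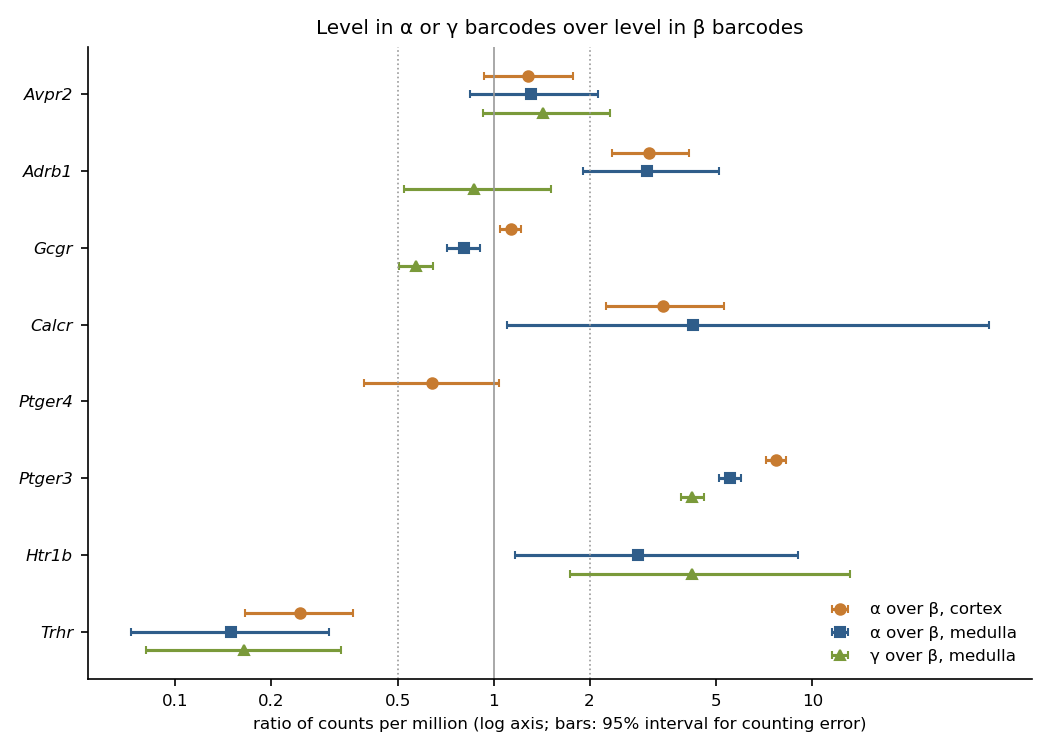
Ratio of levels (horizontal log axis) of α over β in cortex (circles), α over β in medulla (squares) and γ over β in medulla (triangles) for each receptor with at least 30 counts over both classes, with 95% intervals for counting error and dotted lines at 0.5 and 2. Ptger3 lies to the right of 2 and Trhr to the left of 0.5 in all 3, and Adrb1 is above 2 for α over β but at 0.868 for γ over β.

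Members past a 2-fold ratio were counted in each contrast beside the share of all genes with at least 30 counts that passed it, and since the genes were selected with these contrasts known, nothing is read from the excess. Between α and β of the cortex, 3 of 7 members were higher in α (Ptger3, Calcr and Adrb1), where 1.86% of 13637 genes were, and 1 was lower (Trhr), where 2.24% were. Between α and β of the medulla, 4 of 7 were higher (Ptger3, Calcr, Adrb1 and Htr1b), where 4.05% of 12438 genes were, and 1 was lower (Trhr), where 2.52% were. Between γ and β of the medulla, 2 of 6 were higher (Ptger3 and Htr1b), where 4.37% were, and 1 was lower (Trhr), where 4.32% were. Between MD and α of the cortex, 1 of 7 was higher (Calcr), where 6.00% were, and 4 were lower (Ptger3, Avpr2, Adrb1 and Trhr), where 5.63% were. From cortex to medulla within α, 1 of 8 was higher (Htr1b), where 1.74% were, and 3 were lower (Trhr, Calcr and Ptger4), where 10.0% were. Within β, 1 of 7 was higher (Ptger3), where 1.02% were, and 2 were lower (Calcr and Ptger4), where 10.7% were. The median ratio of members and of all genes was 1.28 and 0.989 for α over β in cortex, 2.85 and 1.01 in medulla, and 0.426 and 1.02 for MD over α. The contrasts share their α and β barcodes.

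Some of these ratios depended on how the classes were defined. When α, β and γ were instead taken from counts of Cldn10, Cldn16 and Kcnj10, the cortical α to β ratio was 1.77 for Ptger3, 1.52 for Adrb1 and 1.41 for Calcr, none of them past 2-fold, and the medullary ratios were 2.28 for Ptger3 and 1.34 for Adrb1. The γ to β ratio of the medulla was then 1.61 for Ptger3 in place of 4.20 and 0.636 for Trhr in place of 0.165. For Adrb1 it was 0.327 in place of 0.868, and for Htr1b it was no lower than 4.03 under any alternative. The classes from Cldn10, Cldn16 and Kcnj10 left 233 barcodes in medullary γ. Adrb1 and Htr1b were not both counted as past 2-fold there, so Adrb1, Htr1b or both fell under the count minimum for a ratio. With the deposited clusters named by their majority class, the Ptger3 ratio was 4.46 in cortex and 14.5 in medulla. Without barcodes holding 5 or more counts of Lrp2, Cubn and Slc34a1, a setting added after the data were seen, the cortical Calcr ratio was 7.50.

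The sequences before the start sites of Ptger3, Adrb1 and Calcr are shown because these 3 members were more than 2-fold higher in α than in β of both libraries. The 250 bases before each RefSeq start are printed 5′ to 3′ on the strand of the gene, from the RefSeq table of build GRCm38.p6, and each was found once, without mismatch, in GRCm39: Ptger3 at chr3:157272263-157272512 (+), Adrb1 at chr19:56710299-56710548 (+) and Calcr, before the more downstream of its 2 starts and so within the annotated gene span, at chr6:3763624-3763873 (−). Capitals mark matches on either strand to GGGCGG (the GC box), CCAAT (the CCAAT box), TATAAA (the TATA box), TGACG (the core of the cAMP response element), AGGTCA (the core site of nuclear receptors) or CACGTG (the E-box).
Ptger3: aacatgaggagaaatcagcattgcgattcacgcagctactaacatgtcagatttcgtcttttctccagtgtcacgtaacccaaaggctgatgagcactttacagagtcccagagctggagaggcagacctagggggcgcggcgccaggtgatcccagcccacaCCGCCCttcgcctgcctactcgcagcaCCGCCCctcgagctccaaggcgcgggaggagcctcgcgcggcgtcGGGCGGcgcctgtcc
Adrb1: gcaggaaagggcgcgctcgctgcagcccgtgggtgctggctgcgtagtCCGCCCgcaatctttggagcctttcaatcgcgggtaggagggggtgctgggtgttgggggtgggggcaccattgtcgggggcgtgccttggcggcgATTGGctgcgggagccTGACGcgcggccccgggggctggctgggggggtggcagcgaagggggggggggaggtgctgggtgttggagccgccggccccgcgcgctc
Calcr: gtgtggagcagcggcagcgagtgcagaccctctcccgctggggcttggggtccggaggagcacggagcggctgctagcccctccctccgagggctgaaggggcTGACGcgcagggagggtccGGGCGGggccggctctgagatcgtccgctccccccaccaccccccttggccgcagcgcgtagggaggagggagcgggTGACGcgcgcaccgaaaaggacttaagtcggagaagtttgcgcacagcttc
All 3 printed windows held a GC box, 3 of them in Ptger3, as did 32.7% of the 32851 windows of the table. Adrb1 held TGACG 1 time and Calcr 2 times, as did 17.8% of windows, and Adrb1 also held a CCAAT box, as did 33.8%. The TATA box letters were found in 12.4% of all windows, the nuclear receptor letters in 14.02% and the E-box letters in 6.02%, and none of these was in the 3 windows. The G and C content was 62% in Ptger3, 74% in Adrb1 and 70.8% in Calcr, against a median of 52.4% over all windows. The window before the other start of Calcr, at chr6:3764714-3764963 (−) and not printed, held no GC box and 1 match to TGACG, at 46% G and C, below that median. Entries were found for 7 of the 8 members. A match of letters is a description and not a binding site.

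The medulla portion also held deep cortex, so position was described by 13 cortex and 13 medulla score genes that the study named on these data, as the share of cortex genes among the score counts of each barcode, cut at 1/3 and 2/3. In medullary α, 2683 barcodes fell below 1/3, 736 in the middle and 357 above 2/3. Htr1b was counted mainly in the first of these, at 11.5 CPM (9.005 to 14.4) with 74 of the 76 counts, against 0.4999 and 1.08 in the others from 1 count each. Calcr ran the other way, from 0.775 CPM (0.252 to 1.81) below 1/3 through 8.999 to 23.8 (14.9 to 36.0) above 2/3, and in cortical α it was 0, 9.17 and 27.7 CPM over the same order. The cortical 0 came from 189 barcodes, with an interval up to 6.88 CPM. Above 2/3 the α barcodes of both libraries had overlapping Calcr intervals, and 22 of the 45 medullary α counts came from these 357 barcodes. For Htr1b, cortical α below 1/3 had 0 counts (0 to 6.88 CPM), below the medullary interval. The 3430 medullary γ barcodes below 1/3 had 12.4 CPM of Htr1b (10.1 to 14.9). The 216 medullary β barcodes there had 5.71 (1.56 to 14.6), so γ overlapped both β and α of that bin. Ptger3 in it was 1524 CPM (1498 to 1550) in γ and 687 (627 to 751) in β.

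Gcgr and Ptger3 also varied along this axis. In medullary α, Gcgr was 133 CPM (124 to 142) below 1/3, 222 in the middle and 218 above 2/3, and in cortical α it was 196, 189 and 259. Its lower medullary α level lay in the barcodes with mostly medulla genes, but cortical α barcodes of that same bin had 196 CPM (160 to 237), above the medullary 133. The other medullary bins lay near the 226 CPM of cortical α as a whole. Ptger3 in medullary α was 2063, 1786 and 1527 CPM from below 1/3 to above 2/3, while cortical α had 1366, 1143 and 1238. The 1527 CPM above 2/3 in the medulla library lay above the 1238 of the same bin in the cortex library. Of all α barcodes, 12.3% in cortex and 1.64% in medulla held 5 or more counts of the proximal tubule genes Lrp2, Cubn and Slc34a1. In cortex these had 534 CPM of Ptger3 against 1423 in the others, 107 of Gcgr against 264 and 21.3 of Adrb1 against 43.7. The shares of barcodes with a count were closer, at 70.2% against 74.2%, 43.1% against 45.7% and 9.83% against 9.44%, and depth was not made equal. Without the barcodes holding those proximal tubule counts, a setting added after the data were seen, the medulla to cortex ratio in α was 1.41 for Ptger3 in place of 1.62 and 0.626 for Gcgr in place of 0.711.

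The medullary β class spanned a wide range of Ptger3. Ptger3 was 687 CPM (627 to 751) in the 216 β barcodes below 1/3, 205 (171 to 245) in the 192 of the middle and 35.7 (20.4 to 58.0) in the 163 above 2/3. By the rule's own genes, the 359 medullary β barcodes that also met the γ threshold had 453 CPM and the other 212 had 154. In cortical β the 3 bins had 169, 184 and 140 CPM, so no such slope was seen there. Trhr in cortical β was 25.2 CPM (19.9 to 31.5) above 2/3 and 11.2 (6.94 to 17.1) in the middle. Medullary β had 15.6 (6.29 to 32.2) and 13.1 (5.68 to 25.9) there, overlapping the cortical intervals of the same bins. Adrb1 and Avpr2 had overlapping intervals over the bins of β in both libraries. In medullary α, Adrb1 was 28.8 CPM (24.8 to 33.3) below 1/3, 48.5 (39.3 to 59.2) in the middle and 27.0 (17.5 to 39.8) above 2/3. Medullary γ had 8.69 (6.85 to 10.9) of it below 1/3 and 33.4 (15.3 to 63.5) in the middle, while its cortical α bins overlapped. Pth1r is among the cortex score genes, and it was also higher in β than in α of the medulla, at 422 CPM against 80.5. β barcodes without Ptger3 held more of it than those with Ptger3, at 510 against 246 CPM in medulla and 622 against 387 in cortex. Cortical β barcodes with and without Trhr had overlapping Pth1r intervals, at 529 and 569 CPM. The bins thus share a gene that differs between α and β, and bins without Pth1r were not tested.

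**Figure D4:**
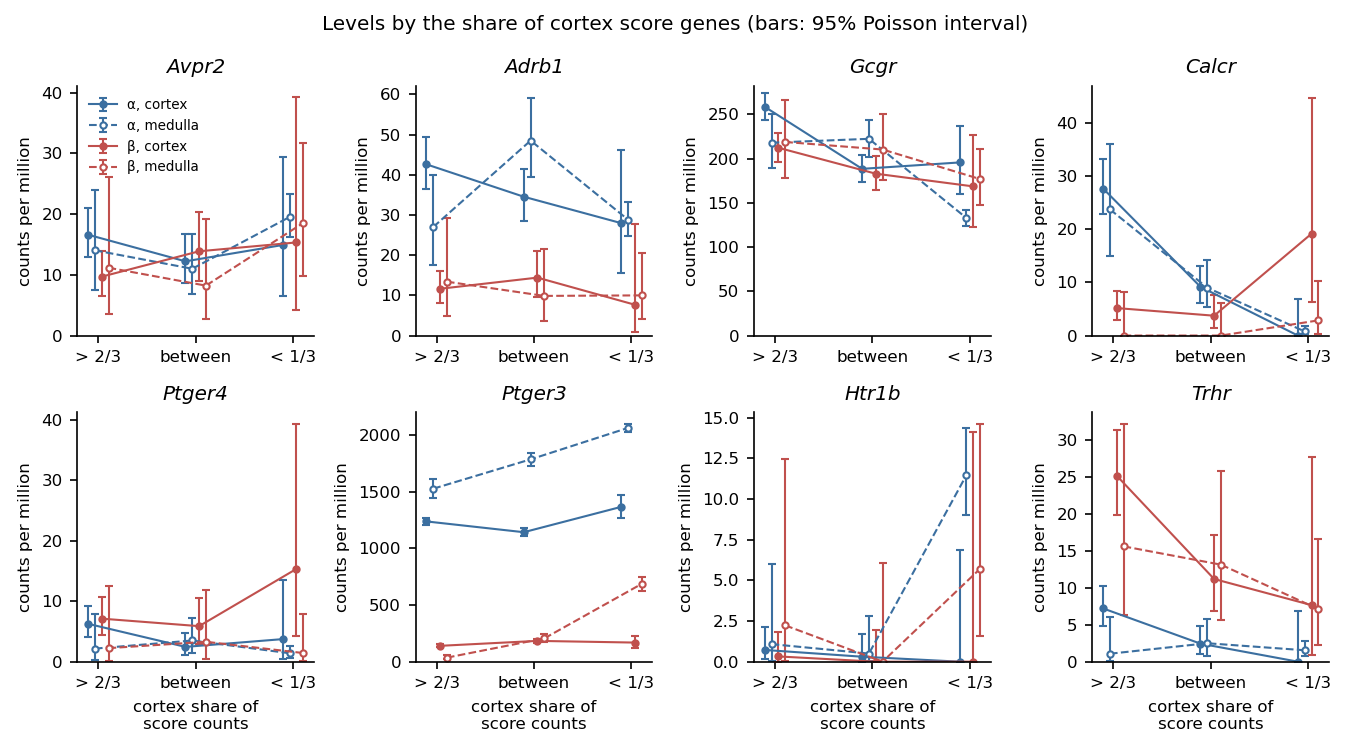
Level of each receptor in CPM (vertical axis, a scale of its own in each panel) in α (blue) and β (red) barcodes of the cortex (filled, solid line) and medulla (open, dashed line), binned by the share of cortex genes among the score counts, with 95% Poisson intervals. Toward medulla genes, Calcr goes down to 0.775 CPM and Htr1b up to 11.5 CPM in medullary α, and Ptger3 up to 687 CPM in medullary β.

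The shares of barcodes that held counts of both receptors of a pair were set beside the product of their separate shares. At 1000 counts per barcode, Ptger3 and Gcgr were both present in 13.7% of cortical α barcodes (12.5 to 15.0), where the product of their shares was 12.9%, and in 10.2% of medullary α (9.24 to 11.2), where it was 11.1%. Ptger3 and Adrb1 were both present in 2.66% of medullary α barcodes, with a product of 2.43%, and Ptger3 and Htr1b in 0.763% of medullary γ, with a product of 0.771%. Gcgr and Calcr were both present in 14 of 653 cortical MD barcodes, where the product gave 9.79. Barcodes too small to be called held 662 and 1437 CPM of Ptger3 and 242 and 196 of Gcgr in cortex and medulla, and the part of free RNA in these shares was not tested.

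**Figure D5:**
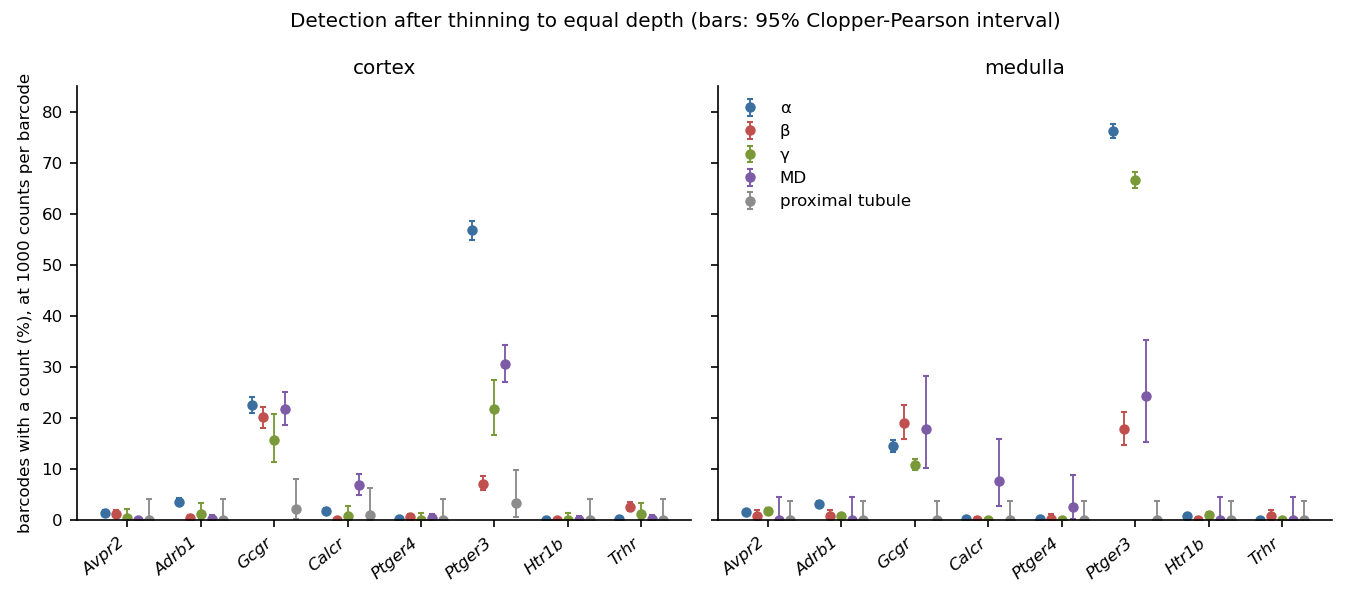
Share of barcodes with at least 1 count (vertical axis, %) after thinning each barcode to 1000 counts, by receptor, in the 4 TAL classes and in proximal tubule barcodes (grey) of each library, with 95% Clopper-Pearson intervals. Ptger3 reaches 76.2% in medullary α and 66.6% in γ, Gcgr lies between 10.9% and 22.6%, and the proximal tubule points lie at or below 3.49%.

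Of 102 other hormone and neurotransmitter receptors on a list made with the earlier results known, 24 had at least 100 counts in TAL barcodes. Between α and β, 3 of 30 that could be compared in cortex were higher in α and 3 lower, where 1.86% and 2.24% of all genes were, with a median ratio of 0.852 against 0.989 over all genes. In medulla 1 of 22 was higher and 5 lower, where 4.05% and 2.52% were, with 0.814 against 1.01. Hrh2, the histamine H2 receptor, was the one past 2-fold in both, at 3.13 in cortex and 3.31 in medulla, and Adora2b and P2ry2, for adenosine and for ATP, were so in cortex, at 4.18 and 3.08. Among those higher in medullary β were Pth1r at 422 CPM against 80.5 in α, Casr at 1362 against 557, Bdkrb2 at 58.6 against 11.5 and Tshr at 63.8 against 11.7, receptors for parathyroid hormone, calcium, bradykinin and thyrotropin. Between MD and α of the cortex, 3 of 25 were higher and 3 lower, where 6.00% and 5.63% of all genes were, and Tshr had 903 CPM in MD against 89.5 in α. Chrm3 was lower in cortical α than in β, at 20.6 against 46.3 CPM, and P2ry2, Fshr and Hrh2 were lower and Npr1 higher in MD than in α of the cortex. From cortex to medulla, 0 of 31 were higher and 9 lower in α, where 1.74% and 10.0% of all genes were, and 2 of 23 were higher and 11 lower in β, where 1.02% and 10.7% were. Igf1r, Insr, Gabbr1, Adra1a, Calcrl, Ptgfr, Agtr1a, Oprm1, Adra2b, Grm5, Htr1f, Gabbr2 and Npr2 were within 2-fold between α and β wherever they could be compared.

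Of 28 G protein subunits, 0 of 20 compared in cortex and 1 of 18 in medulla passed 2-fold between α and β, with median ratios of 1.13 and 1.02. Of 32 receptor regulators, 0 of 21 and 3 of 17 did, none in both libraries. Over all genes, 1.86% were higher and 2.24% lower in α of the cortex, and 4.05% and 2.52% in α of the medulla. Ramp3, which turns the calcitonin receptor into an amylin receptor, was 29.98 CPM in cortical MD against 3.39 in cortical α, the same class that led for Calcr. In the medulla Ramp3 was 36.1 CPM in MD against 0.746 in α, from fewer than the 30 counts set for a ratio. There 3 counts make 18.1 CPM in MD and 0.320 in α. Ramp3 was picked out after its values were seen.

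Among 16 genes that make or move the receptor ligands, 2 of 7 compared were higher in α than in β of the cortex and 1 was lower, where 1.86% and 2.24% of all genes were, and 1 of 5 was higher in the medulla, where 4.05% were. Ptgs2, the inducible cyclooxygenase of the MD, was 85.8 CPM in cortical MD against 4.14 in α and 0.765 in β. Slco2a1, which takes prostaglandin E2 into cells, was higher in α, as was Ptger3, at 272 CPM in cortical α against 74.4 in β (3.66-fold) and at 154 against 78.0 in medulla (1.98-fold), and it was at 24.6 in medullary γ, where Ptger3 stayed high. Abcc4, which exports it, was 349.6 CPM in cortical MD and 233 in α. Ptgs1 was 3.26 CPM in cortical α and 9.75 in β, and Ddc, which makes serotonin and dopamine, had 10.2 and 15.7 there and 5.86 and 2.85 in the medulla. Ptges2 and Ptges3, both prostaglandin E synthases, were within 1.24-fold between α and β.

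The genes most like each member were sought over the 8 sums of class and library, by Pearson's r of log2(CPM + 1) over 9851 genes with at least 300 counts, as a description with no p, since the points share libraries and depth. Calcr went with Ncam1 (r = 0.997), Dpyd and Robo2, of which Robo2 is on the MD marker list. Ptger3 went with Msantd2 (0.986), Zmpste24 and Zfp618, Htr1b with Pard3 (0.995) and Spire1, and Trhr with Sh3rf1 (0.988), Ggt1 and Akap7. Adrb1 went with Actn4 (0.987), Pdia3 and Rasgrp1, Gcgr with Scn4b (0.989), Arhgap8 and Slc25a25, Avpr2 with Idh3b (0.989), Mdh2 and Ap1b1, and Ptger4 with Fbxo21 (0.992), Gclm and Helb. Some of these sums hold few counts, such as 3 of Ptger4 in medullary MD, where its level was highest, and 4 of Htr1b in cortical α. The Tmem207/Gpc5 barcodes of the cortex are also among the 8 sums.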

How the data were processed

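The authors sorted GFP-positive nuclei and built 1 PIPseq 3′ library per region. The deposited matrices hold raw counts of molecules per gene and barcode, not normalized, for the barcodes called as nuclei and for all barcodes, on build GRCm39. Per the submitters' processing notes, bcl2fastq and Seurat 4.4.0 were used. Whether introns were counted, and on which strand, is not given in the sources used here. The deposited UMAP coordinates were not used, and the cluster labels served in 1 alternative.

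Classes were assigned by the rule stated above. The members, the lists and the rule were chosen with earlier results of these data known. Counts were summed per class and library (level: CPM of all counts in those barcodes, with exact Poisson 95% intervals). Ratios carry a conditional exact binomial interval and shares a Clopper-Pearson interval, and a ratio counts as past 2-fold only with at least 30 counts over both classes. With 1 library per region there were no replicates, no tests and no p-values. Detection was repeated after thinning to 1000 counts, and set beside proximal tubule barcodes (at most 2 Slc12a1 counts and at least 5 of Lrp2, Cubn and Slc34a1) and uncalled barcodes with at most 50 counts. Named were all members, listed receptors with at least 100 counts, prostaglandin and ligand genes with at least 100 counts, other listed genes past 2-fold in the same direction between α and β of both libraries, and the 3 genes most like each member, of which some genes are not reported here. Alternatives covered filters, doublets, class rules, free RNA and denominators. Doublets came from Scrublet in scanpy 1.11.5, at its own threshold in cortex (359 barcodes) and, since it marked 0.0369% in medulla, as the highest 5% of scores there (489). Gene positions are from the GENCODE M39 annotation of GRCm39. Python 3.11.15, scipy 1.17.1 and pandas 2.3.3 were used, and the ratio step was tested on simulated data.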

Additional observations from a re-analysis of the deposited data

Results flagged for a closer look

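Gcgr was flagged because its α to β ratio lay on opposite sides of 1 in the 2 libraries, 1.13 in cortex (1.05 to 1.22) and 0.805 in medulla (0.717 to 0.907), and neither interval holds 1. The difference between the ratios was not tested, since each region is 1 library. In medullary barcodes with mostly cortex score genes, Gcgr was 218 CPM in α and 219 in β. In those with mostly medulla score genes it was 133 in α (124 to 142) and 177 in β (147 to 211), so these intervals did not overlap. The cortical ratio was itself below 1 with both other class definitions, at 0.751 with classes from Cldn10, Cldn16 and Kcnj10.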

How the results depend on the processing

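The 6 counts of members past 2-fold were 4 and 5 for α against β in cortex and medulla, 3 for γ against β in medulla, 5 for MD against α in cortex, and 4 and 3 for medulla against cortex in α and β. Of 66 values under 11 alternatives, 59 stayed within 1.5 times. With classes from Cldn10, Cldn16 and Kcnj10 the 6 counts were 1, 2, 1, 3, 2 and 1. Those classes held 882 barcodes in cortical α, 982 in cortical β and 233 in medullary γ, against 2824, 1493 and 3542 otherwise. Members under the count minimum for a ratio are left out of these counts. For α over β in medulla, those classes gave 2.28 for Ptger3, 2.26 for Calcr and 0.338 for Trhr, though the count was 2. Htr1b was no lower than 2.71 there under any alternative. With stricter class thresholds the last of the 6 counts was 0. In that β class, Calcr had 21 counts in cortex and 0 in medulla and Ptger4 had 20 and 2, under the minimum. Ptger3 there was 137 CPM in cortex and 233 in medulla. Of 458 member ratios, 381 lay within the interval of the value reported, 72 outside it, and 5, of ratios whose interval left out 1, lay on the other side of 1. Those were Gcgr in cortex with the claudin classes, at 0.751 for α over β and 1.08 for MD over α, and with the deposited clusters, at 0.813 and 1.25, and Ptger3 in medulla over cortex β with the deposited clusters, at 0.591 against 2.25. The cause was not tested. Ratios of Avpr2, Adrb1 and Gcgr whose interval held 1 also crossed it, such as Avpr2 α over β with the claudin classes, at 0.920 in cortex and 0.864 in medulla, and Adrb1 in medulla over cortex β with the stricter thresholds, at 1.22. Shares of barcodes with a count fell outside their interval in 50 of 64 cases after thinning, which lowers depth. Only 6 cortical TAL barcodes held Htr1b, and 78 medullary MD barcodes limit every value of that class. The alternatives without proximal tubule or Slc12a3 transcripts were chosen after seeing the data. No paired analysis was possible because there is 1 library per region and no test.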
